A study of Mus musculus with 7 samples.

Results

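The nuclear genes whose products copy and transcribe the mitochondrial genome (mtDNA) were examined in mouse oocytes with and without *Mfn1*. The 10 members were taken by gene symbol: *Polg*, *Polg2*, *Twnk* and *Ssbp1* of the replication machinery, *Polrmt*, *Tfam*, *Tfb2m* and *Tefm* of the transcription machinery, and *Tfb1m* and *Lrpprc*, which act on the RNA made from mtDNA. All 10 had a row among the 22877 genes of the authors' deposited table. *Mfn1* encodes mitofusin 1, a GTPase that fuses outer mitochondrial membranes. RNA from secondary follicle-enclosed oocytes was amplified with Smart-Seq2, which reads poly(A) RNA along its length, and 5 oocytes were pooled for each library. The labels give 4 WT and 3 Mfn1-/- libraries, all from C57BL/6J mice aged 8 weeks, while the design text counts 3 of each genotype. Mfn1-/- mice carried floxed *Mfn1* and the Cre recombinase under the *Zp3* promoter, which is active in growing oocytes, so the deletion is meant for the oocyte and not for the other cells of the follicle. No other agent or allele is named for either genotype.

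Each value is the authors' mean of normalized counts over the libraries of a genotype. The deposited total equaled 3 Mfn1-/- means plus 4 WT means within 1% in 100% of the genes, so 7 libraries enter the values. No value of a single library was used. The columns of the authors' own test were left aside, so a difference below carries no replicate check or p-value, and every comparison is a description of the authors' means. The normalized counts are relative values within a library, so less RNA per oocyte and fewer oocytes in a pool cannot be told apart.

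A mitochondrion carries many copies of a small circular genome that encodes core subunits of the respiratory chain, while every protein that copies or reads it is encoded in the nucleus. The helicase TWNK opens the double strand, SSBP1 covers the single strand, and the polymerase POLG with its accessory subunit POLG2 builds the new strand. POLRMT starts transcription with TFAM and TFB2M, and its short transcripts also serve as primers for replication. Growing oocytes are known for a large rise in mtDNA copy number, which supplies the early embryo before replication of mtDNA starts again.

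The targeted gene was examined first. *Mfn1* (chr3:32529465-32579239, GRCm38) had an authors' mean of 0.0577 normalized counts in Mfn1-/- against 0.616 in WT oocytes, a WT mean 10.7 times as high. On the log2 scale used below, with 0.1 added to both means, the ratio was -2.18, and adding 1 instead gave -0.61, which is short of 2-fold. Stretches of *Mfn1* of 75 bases or more recur at 95% identity in 90 other genes. The exons removed by Cre are not given in the sources used here, and reads from the rest of the gene would still be counted. The libraries carried the marks of oocytes, with all 13 oocyte markers listed and 12 of them at a mean of at least 1. *Dppa3*, the most abundant of them, had authors' means of 812 normalized counts in Mfn1-/- against 816 in WT oocytes, and 0 of the 13 lay past 2-fold. The Mfn1-/- mean was the higher in 9 of the 13 and the lower in 4. The 13 means summed to 2982 in Mfn1-/- against 2684 in WT oocytes, and the median log2 ratio was 0.206. Of 14 granulosa cell markers, 12 had a row. Their means summed to 2.40 normalized counts in Mfn1-/- against 1.78 in WT oocytes, and *Inha*, the most abundant, stood at 1.87 and 0.954. *Amh*, *Fshr* and *Foxl2*, which define granulosa cells, were near the lowest value of the table, at 0.0349, 0.0160 and 0.0525 in Mfn1-/- oocytes and 0.0200, 0.0171 and 0.0183 in WT oocytes. The sum was carried by *Inha*, and 9 of the 12 had the lower mean in Mfn1-/- oocytes, among them *Cyp19a1* at 0.0846 against 0.193 and *Hsd17b1* at 0.0412 against 0.152. The 4 theca and stroma markers with a row were led by *Star*, the 1 red cell marker was *Hba-a2*, and *Pecam1* led the 2 endothelial markers. These 3 lists summed to 0.198, 0.0285 and 0.180 in Mfn1-/- and to 0.197, 0.0793 and 0.205 in WT oocytes. Of 4 leukocyte markers 2 had a row, and their sum was 7.59 in Mfn1-/- against 0.692 in WT oocytes. Nearly all of it was *Cd68*, a lysosomal protein abundant in macrophages, at 7.58 and 0.672, while *Lyz2* stood at 0.01, the lowest value of the table, and 0.0203. Whether leukocyte RNA has a part in any value below was not tested.

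Promoters of all 10 members were taken from RefSeq (GRCm38.p6), each reaching from 250 bases before to 50 bases after an annotated start. They were searched on both strands for letters bound by factors known to act on nuclear genes for mitochondria: CCGGAAG, the core of sites for ETS factors such as GABPA, and GCATGCGC and TGCGCA, which are both parts of sites for NRF1. CCGGAAG was found in 7 of the 10 members and in 9.93% of all 27025 genes with a RefSeq promoter, or 8.86% of all 32851 promoters. The 8 matches lay from 9 to 110 bases before the RefSeq start. The annotated starts differ between sources, and 6 of the 8 matches, in 5 members, lie after the outermost start of GENCODE M21, while those of *Polrmt* and *Polg2* lie before it. They are printed 5′ to 3′ on the strand of the gene, with the motif or its reverse complement in capitals. Of the motifs searched, CCGGAAG was the only one found in most of the members, and no others were searched. *Twnk* has 2 annotated promoters, and both of its matches lie in that of the downstream start.
Tfam (chr10:71238074-71238102, minus strand): cctgccgcggaCCGGAAGtccgggcttcc
Polrmt (chr10:79746607-79746635, minus strand): ccctaagagcgCTTCCGGcagtcgcagaa
Polg (chr7:79466294-79466322, minus strand): gaggacctcacCCGGAAGtccctctgcac
Polg2 (chr11:106779549-106779577, minus strand): cgggtgacgctCTTCCGGgggcgtggtct
Twnk (chr19:45006437-45006465, plus strand): ctaaccggtgaCTTCCGGttccggggttg
Twnk (chr19:45006481-45006509, plus strand): ggagagttttgCTTCCGGagtcaccgcga
Ssbp1 (chr6:40471410-40471438, plus strand): ggctccgtgcgCCGGAAGcgagccgctgg
Tefm (chr11:80142145-80142173, minus strand): agcacacgaaaCCGGAAGttgaggaggaa

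The longer NRF1 core GCATGCGC was found in 2 members, *Tfb2m* and *Polrmt*, and in 3.05% of all genes with a promoter, or 2.71% of all promoters. *Tfb2m*, which lacks CCGGAAG, holds it 13 bases after the start, and *Polrmt* holds it 133 bases before the start, upstream of its ETS core.
Tfb2m (chr1:179546245-179546274, minus strand): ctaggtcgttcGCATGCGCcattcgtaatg
Polrmt (chr10:79746696-79746725, minus strand): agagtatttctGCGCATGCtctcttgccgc

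TGCGCA was found in the same 2 members and in 8.79% of all genes with a promoter, or 7.76% of all promoters. In *Polrmt* 1 of its 2 matches overlaps the longer core, while in *Tfb2m* it lies 181 bases before the start. None of the 3 motifs was found in the promoter windows of *Tfb1m* and *Lrpprc*. A match is a run of letters and not a measured binding site. Among related genes described below, CCGGAAG was found in 10 of 25 genes for mitochondrial RNA processing, 3 of 6 nucleoid genes, 2 of 16 nucleotide supply genes and 1 of 10 nuclear regulators with a RefSeq promoter. GCATGCGC was found in 1, 2, 0 and 1 of these genes and TGCGCA in 3, 4, 3 and 2, in the same order, so both NRF1 forms were found in a larger share of the nucleoid genes than of the members. The replication partners were left out because 7 of the 10 had a promoter in the RefSeq table, under the minimum share of 80%.

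**Figure D1:**
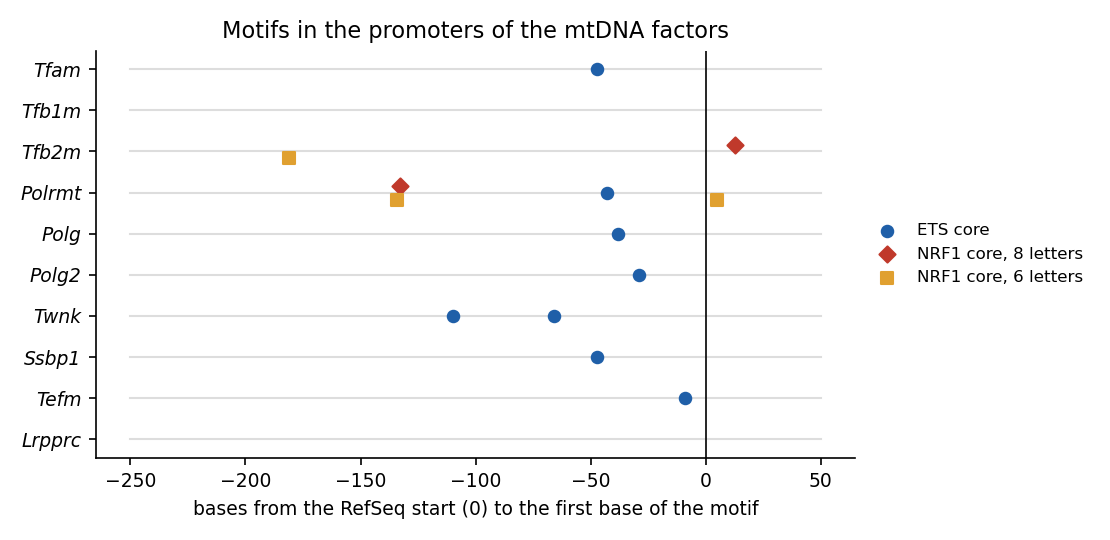
Places of 3 motifs in the RefSeq promoters of the 10 mtDNA factors, with the annotated start at 0 on the horizontal axis in bases and each grey line spanning the window searched (for Twnk, matches are drawn from its own downstream start). The 8 matches to the ETS core CCGGAAG lie from 9 to 110 bases before the RefSeq start in 7 genes, and the longer NRF1 core is found in Polrmt and Tfb2m.

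The members spanned a wide range of levels. Low values fell with gene length. Among genes at the lowest mean of 0.01 in Mfn1-/- oocytes, the excess of the WT mean over 0.01 was compared by length. Its median was 0.141 for genes with under 500 exon bases and 0.0024 for those with 4000 or more. The median exon bases of these groups were 390 and 5722, so the fall was steeper than in proportion to length. Levels were compared between genes as they stand, on the reading that the values are per length, which this fall does not settle. Among 6047 expressed genes with a known length, the shortest 25% had a median mean of 7.87 and the longest 25% one of 2.49, so long genes had lower values. The members do not follow length throughout: *Polg*, *Lrpprc* and *Ssbp1* are the longest, with 10742, 8504 and 8360 exon bases, and *Tefm* the shortest, with 1570. In WT oocytes *Polrmt* had the highest authors' mean of the members, 5.06 normalized counts, followed by *Tefm*, *Ssbp1* and *Twnk* at 4.88, 4.53 and 4.30. *Tfam* at 2.62 and *Tfb1m* at 1.81 came next. The last 4 were *Tfb2m*, *Polg2*, *Polg* and *Lrpprc*, at 0.558, 0.337, 0.262 and 0.239. The WT level of *Polrmt* was higher than that of 88.2% of all genes in the table and the level of *Lrpprc* higher than that of 54.5%. In Mfn1-/- oocytes the order of the lower 5 was the same from *Tfb1m* down to *Lrpprc*, while *Ssbp1* stood highest, *Polrmt* was the third and *Tfam* stood above *Twnk*. Whether neighbours in either order differ beyond the spread of the libraries cannot be said from the means.

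**Figure D2:**
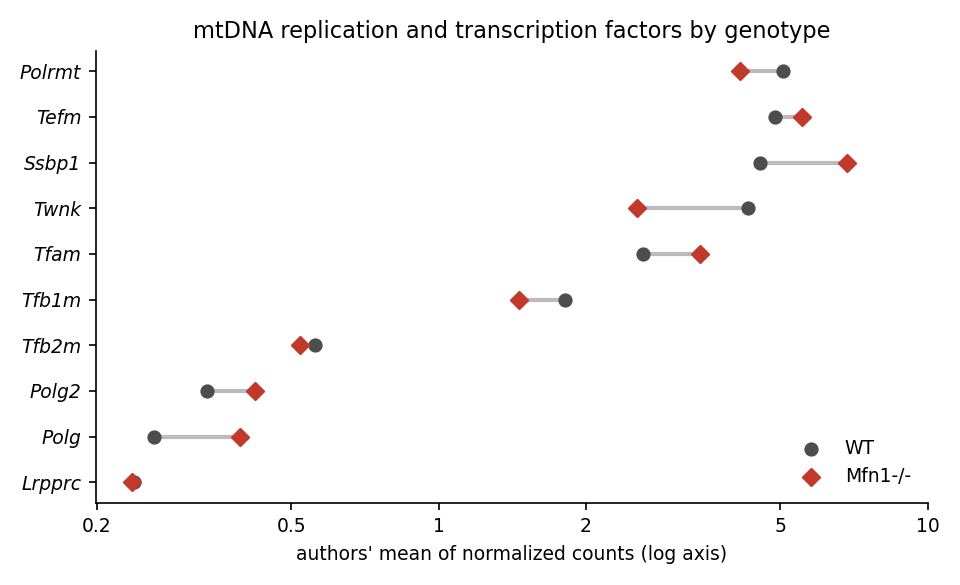
Authors' mean of normalized counts of each mtDNA factor in WT (grey circles) and Mfn1-/- oocytes (red diamonds) on a log axis, ordered by the WT mean, with no error bars because 1 mean per genotype was used. The widest gaps belong to Twnk, with WT at 4.30 above Mfn1-/- at 2.55, and to Ssbp1 and Polg, with Mfn1-/- above WT.

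Between the genotypes, the members differed by less than 2-fold. Ratios are given as log2 of the Mfn1-/- over the WT mean after adding 0.1 to both, which understates the difference of genes with low means. None of the 10 members lay past 2-fold, the size at which a gene was called, against 8.74% of the 6226 genes that reached a mean of 1 (5.49% higher and 3.24% lower in Mfn1-/- oocytes) and 13.8% of the 7604 genes with a mean from 0.1 to 1. After subtraction of their median, 241 of the 6226 genes were past 2-fold with the higher and 283 with the lower mean in Mfn1-/- oocytes, and after division by the sums 255 and 267, so the balance of the directions turns with the scaling. At the level of 1.5-fold, 2 of the 10 members were past it, *Ssbp1* with the higher and *Twnk* with the lower mean in Mfn1-/- oocytes, against 23.2% of those 6226 genes. *Ssbp1* was at the edge of that size, and relative to the median of the 6226 genes its log2 ratio of 0.43 was no longer past it. The 10 members include 6 with a mean of at least 1 and 4 below it. The Mfn1-/- mean was the higher in 5 of 10, against 65.4% of the 6226 genes and 55.4% of the 7604 genes with lower means. The median log2 ratio of the members was 0.08, that of the 6226 genes was 0.16 and that of the 7604 genes was 0.07. Most of the 6226 genes thus lay slightly above 0, and relative to their shift of 0.16 the median of the members was -0.08. The members with a mean below 1 belong to a range where the shift was smaller. With 10 genes, nothing particular to the members is read from these shares. Summed over the 10 members, the means came to 25.5 normalized counts in Mfn1-/- against 24.6 in WT oocytes.

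**Figure D3:**
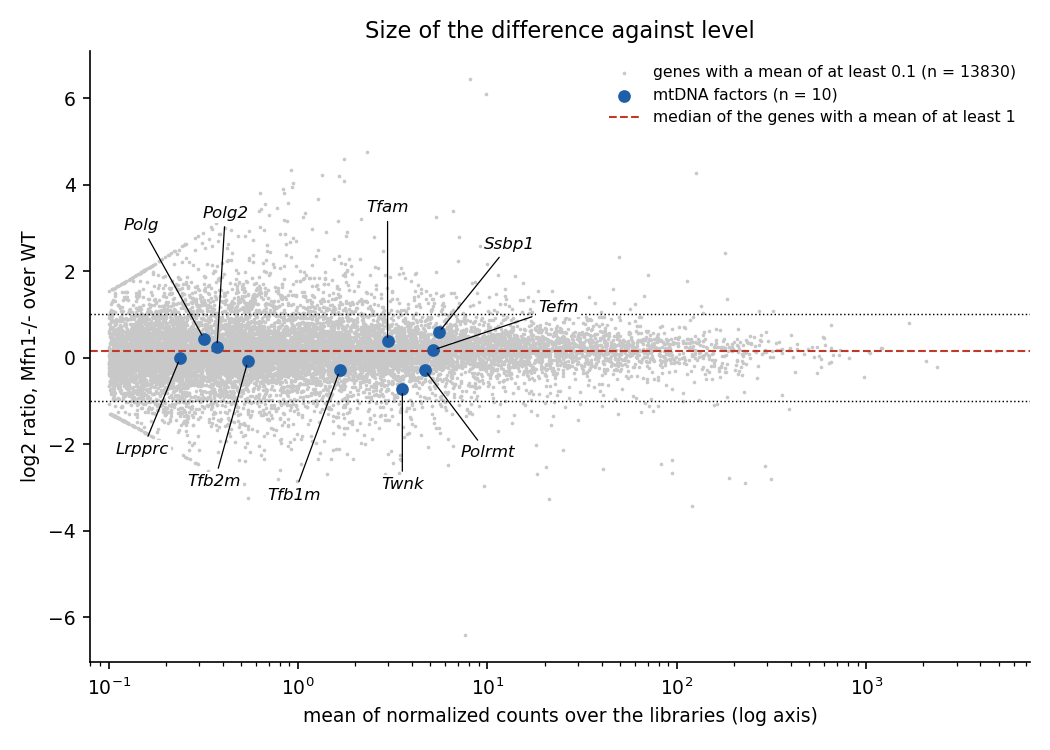
Log2 ratio of the Mfn1-/- over the WT mean against the mean of normalized counts over the libraries (log axis), for 13830 genes with a mean of at least 0.1 (grey) and the 10 mtDNA factors (blue), with dotted lines at 2-fold and a dashed line at 0.16, the median of the 6226 genes that reached a mean of 1. All 10 mtDNA factors lie between the dotted lines, from Twnk at -0.73 to Ssbp1 at 0.59.

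The replication machinery held the members with the lowest and the highest log2 ratio. *Twnk* (chr19:45005663-45012762, GRCm38) encodes the helicase of the replication fork. Its authors' mean was 2.55 normalized counts in Mfn1-/- against 4.30 in WT oocytes, a log2 ratio of -0.73, or -0.89 relative to the median of the 6226 genes. Of the 2540 genes whose mean lay within 2-fold of that of *Twnk*, 6.06% had a lower ratio. *Ssbp1* (chr6:40471352-40484700) encodes the protein that binds the strand laid bare by the helicase. Its mean was 6.85 in Mfn1-/- against 4.53 in WT oocytes, a log2 ratio of 0.59, or 0.43 relative to the median, and 85.8% of the 2127 genes of like level had a lower one. The genes for the helicase and for the single-strand binding protein thus lay on opposite sides of the median.

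Both of these values come with a limit from the annotation. *Twnk* shares 507 exon bases, 12.6% of its own, with *Mrpl43* on the other strand, a gene for a protein of the large mitochondrial ribosomal subunit. The strand setting of the count is not given in the sources used here, and without strand the reads of these stretches cannot be told apart. *Mrpl43* was far more abundant, at 39.1 normalized counts in Mfn1-/- against 25.9 in WT oocytes, and its log2 ratio of 0.59 was opposite in sign to that of *Twnk*. Its annotated start at position 45006442 lies within the first of the *Twnk* stretches printed above. With *Mrpl43* included, stretches of *Twnk* of 75 bases or more recur at 95% identity in 64 other genes. *Ssbp1* shares up to 447 bases at 95% identity or more with *Gm12115*, a processed pseudogene on chromosome 11 that was listed at 27.7 in Mfn1-/- against 19.8 in WT oocytes. The ratio of the pseudogene, 0.48 on the log2 scale, had the sign of that of *Ssbp1*, and how reads were split between both genes was not tested.

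Both genes of the polymerase were at lower levels than *Twnk* and *Ssbp1*. *Polg* (chr7:79446231-79466362) encodes the catalytic subunit and had a mean of 0.392 normalized counts in Mfn1-/- against 0.262 in WT oocytes. Its log2 ratio was 0.44, and with no pseudocount, an alternative added after the data were seen, it was 0.58. *Polg2* (chr11:106768253-106779537), the accessory subunit that holds the polymerase on the strand, had means of 0.421 and 0.337 and a log2 ratio of 0.25. Both subunits thus had the higher mean in Mfn1-/- oocytes, at levels where 13.8% of genes lay past 2-fold. Of the genes of like level, 74.0% had a lower ratio than *Polg* and 62.7% a lower ratio than *Polg2*. *Polg* shares 8.57% of its exon bases with *Fanci* on the other strand, which stood at 0.152 and 0.205. Stretches of *Polg2* of at least 75 bases recur at 95% identity in transcripts of 144 other genes. The longest was 191 bases in *Trpm2*, which stood at 0.480 and 0.171 with a log2 ratio of 1.10, of the same sign as that of *Polg2*. *Polg2* also shares 132 exon bases, 3.03% of its own, with *Milr1* on the other strand, which stood at 0.0196 and 0.013.

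In the transcription machinery, 2 of the 4 members had the lower and 2 the higher mean in Mfn1-/- oocytes. *Polrmt* (chr10:79736123-79746581), the RNA polymerase of mitochondria, had a mean of 4.14 normalized counts in Mfn1-/- against 5.06 in WT oocytes. The log2 ratio was -0.28, or -0.44 relative to the median, and 16.8% of the 2298 genes of like level had a lower one. *Tfb2m* (chr1:179528055-179546267), which melts the promoter for the polymerase, had means of 0.522 and 0.558 and a log2 ratio of -0.08. These are the 2 with the lower mean. *Tfb2m* shares up to 1187 bases with *Gm1818*, an unprocessed pseudogene on chromosome 12 listed at 1.00 and 1.10, so its own level is uncertain.

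*Tfam* (chr10:71225464-71238280) encodes the protein that bends promoter DNA and packs mtDNA into nucleoids. Its mean was 3.43 normalized counts in Mfn1-/- against 2.62 in WT oocytes, a log2 ratio of 0.38, or 0.22 relative to the median, and 71.5% of the 2715 genes of like level had a lower one. *Tefm* (chr11:80136678-80142175), which keeps the polymerase moving along mtDNA, had means of 5.54 and 4.88. Its log2 ratio of 0.18 was near the 0.16 of the 6226 genes, with 53.0% of the genes of like level below it. *Tfam*, *Polrmt* and *Tefm* shared no stretch of 75 bases at 95% identity with a transcript of another gene and overlapped no other gene, so their values carry no such limit.

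The 2 members that act on RNA had the lower mean in Mfn1-/- oocytes. *Tfb1m* (chr17:3519256-3557781) encodes the methyltransferase that modifies the small ribosomal RNA of mitochondria. Its mean was 1.46 normalized counts in Mfn1-/- against 1.81 in WT oocytes, a log2 ratio of -0.29, and 19.4% of the 3245 genes of like level had a lower one. *Tfb1m* thus lay close to *Polrmt* in the size of its difference, and it shares at least 75 bases at 95% identity or more with transcripts of 7 other genes. Among these is *Tiam2* on the other strand, at 0.107 and 0.142, which shares 142 exon bases, or 3.93% of those of *Tfb1m*. *Lrpprc* (chr17:84705247-84790789), whose product binds and stabilizes mitochondrial mRNA, had means of 0.236 and 0.239, the closest of the 10 pairs, with a log2 ratio of -0.01. It shares up to 147 bases at that identity with the pseudogene *Gm28503*, and such stretches recur in 2 other genes in all.

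Ratios of a pair of members within a genotype do not depend on how either genotype was scaled. The mean of *Ssbp1* was 1.05 times that of *Twnk* in WT and 2.69 times in Mfn1-/- oocytes. *Twnk* stood at 16.4 times the level of *Polg* in WT and at 6.51 times in Mfn1-/- oocytes. *Ssbp1* over *Polg*, in contrast, was 17.3 in WT and 17.5 in Mfn1-/- oocytes. These pair ratios restate the differences of the single members given above and add no separate evidence. *Ssbp1* over *Twnk* sets the member with the highest log2 ratio against that with the lowest, so a wide gap follows from the choice. The pairs were not planned, and no share of all gene pairs is given beside them. *Polrmt* over *Tfam* was 1.93 in WT and 1.21 in Mfn1-/- oocytes. *Tfb1m* over *Tfb2m*, the pair of related methyltransferase genes, was 3.24 in WT and 2.80 in Mfn1-/- oocytes. The limits given for *Twnk*, *Ssbp1*, *Polg*, *Tfb2m* and *Tfb1m* hold for these ratios too.

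Genes that work with the members were described by the same count. Of 74 such genes in 5 lists, 73 had a row, and 4 lay past 2-fold, each with the higher mean in Mfn1-/- oocytes. That is 5.48% of the 73, against 8.74% and 13.8% of genes at a mean of at least 1 and from 0.1 to 1. Among 4439 protein-coding genes at a mean of at least 1, a class chosen after the data were seen, the share was 6.17%, near that of the lists. The first list held 10 enzymes that prime, process or degrade mtDNA during replication. It had 1 gene past 2-fold, *Endog*, a mitochondrial nuclease, at 23.5 normalized counts in Mfn1-/- against 11.5 in WT oocytes with a log2 ratio of 1.03. That ratio was 0.87 once the median of the 6226 genes was subtracted, so the call is lost on that scale, and 35.7% of the exon bases of *Endog* overlap *Spout1* on the other strand. *Rnaseh1*, which removes RNA primers, was the next most abundant at 8.30 and 7.35. The Mfn1-/- mean was the higher in 4 of the 10, and the median log2 ratio of this list was -0.16, or -0.32 relative to that of the 6226 genes.

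The other 4 lists had medians above 0 as deposited, of which 3 lay below 0 relative to the median of the 6226 genes. After division by the sums, the medians were 0.023 for nucleotide supply and -0.005 for RNA processing genes. Those of the nucleoid genes and nuclear regulators were both 0.098 on that scale. The sign of these medians thus turned with the scaling, except for the nucleoid genes. Among 18 nucleotide supply genes, *Tyms* and *Rrm2*, which make precursors of DNA, had the highest levels, at 15.0 and 11.1 normalized counts in Mfn1-/- and 18.4 and 9.41 in WT oocytes. The 1 gene of this list past 2-fold was the pyrimidine carrier *Slc25a33*, at 0.567 and 0.173, named after its values were seen because its mean is below 1. Its log2 ratio of 1.29 was 0.42 with a pseudocount of 1, which ends the call, and 14.9% of its exon bases overlap *Gm13068* on the other strand, listed at 0.152 and 0.254. The Mfn1-/- mean was the higher in 12 of the 18. The median log2 ratio of all 18 was 0.15, or -0.01 relative to the median of the 6226 genes.

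Of 27 genes for mitochondrial RNA processing, 18 had the higher mean in Mfn1-/- oocytes and 2 lay past 2-fold. These shares of 66.7% and 7.41% were near the 65.4% and 8.74% of the 6226 genes. *Hsd17b10*, a subunit of the enzyme that cuts the front end of mitochondrial tRNAs, stood at 41.4 normalized counts in Mfn1-/- against 16.9 in WT oocytes, a log2 ratio of 1.29 or 1.13 relative to the median. *Mterf2*, a member of the family of mitochondrial transcription terminators, stood at 1.68 and 0.144 with a log2 ratio of 2.87, and was also named after its values were seen. Its log2 ratio was 1.23 with a pseudocount of 1 and 3.54 with none, so its size depends on that choice. It shares 22.7% of its exon bases with *Tmem263* on the other strand, which stood at 0.242 and 0.230. The most abundant of the list were *Mrpl12*, a ribosomal protein that also binds POLRMT, at 48.9 and 43.6, and *Mterf4*, a partner of a ribosomal RNA methyltransferase, at 38.5 and 27.5. The median log2 ratio of the list was 0.11, or -0.05 relative to that of the 6226 genes.

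Among 7 nucleoid genes and 11 nuclear regulators with a row, 0 lay past 2-fold. *Phb2*, a prohibitin of the inner membrane, stood at 45.8 normalized counts in Mfn1-/- against 51.3 in WT oocytes, and *Shmt2*, an enzyme of mitochondrial folate metabolism, at 13.2 and 7.70. The regulators were at low levels, led by *Gabpb1*, the partner of the ETS factor GABPA, at 1.30 and 1.10, and by *Nrf1* at 0.794 and 0.767. The Mfn1-/- mean was the higher in 5 of the 7 nucleoid genes and 9 of the 11 regulators, or 71.4% and 81.8%, against 65.4% and 55.4% of genes at a mean of at least 1 and from 0.1 to 1. The median log2 ratio was 0.21 for the nucleoid genes and 0.16 for the regulators, or 0.05 and -0.003 relative to the median of the 6226 genes. Of the 11 regulators 10 had a mean below 1 and 5 a mean below 0.1, and the median of this list was 0.35 with no pseudocount and 0.03 with a pseudocount of 1. *Myc* had no row. The genes encoded by mtDNA were not analysed, and 0 rows had a name that starts with mt-.

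**Figure D4:**
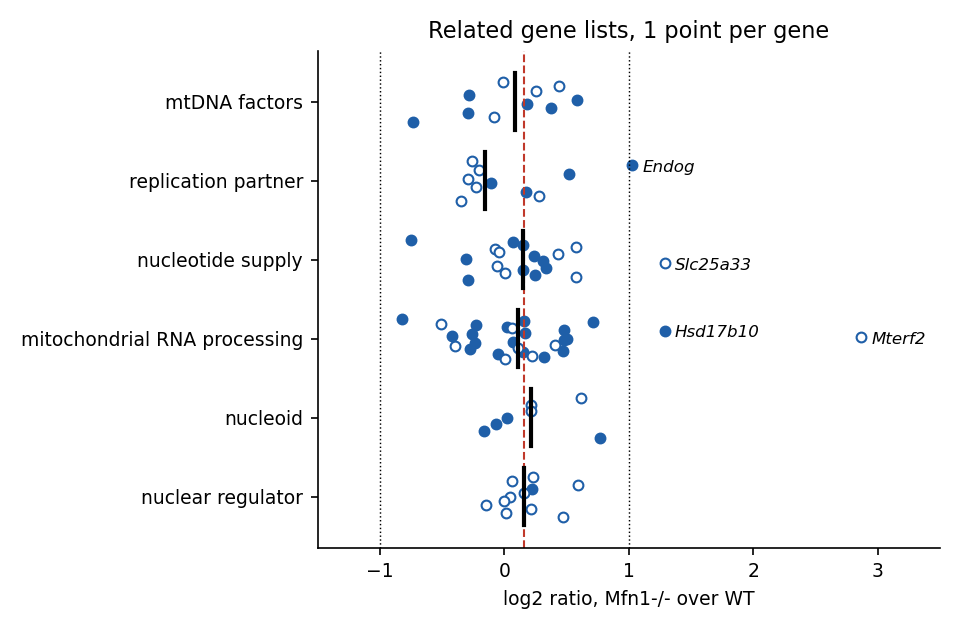
Log2 ratio of the Mfn1-/- over the WT mean for each mtDNA factor and each gene of 5 related lists, 1 point per gene, filled where the mean was at least 1 and open below it, with black bars at list medians, dotted lines at 2-fold and a dashed line at 0.16, the median of the 6226 genes. The 4 genes past 2-fold are named, and 0 of them are mtDNA factors.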

How the data were processed

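Reads had been trimmed (Cutadapt), quality-filtered and mapped to GRCm38/mm10 (STAR) by the authors. Their deposited signal is the average normalized count of each gene over the libraries of a genotype, with a normalization not given in the sources used here. DESeq is named among the authors' tools, and whether it gave these normalized counts is not stated. Columns with the authors' ratio, fold change, p-value and FDR were not used, and 0 columns of per-sample values were left unused. Depth per library is not given in the sources used here. Groups came from the sample labels. Log2 ratios used a pseudocount of 0.1, and a gene was called past 2-fold. The library-weighted mean of both genotypes set the minimum of 1. Members and lists were chosen with earlier results of these data known. Named genes are *Mfn1*, the members, in each list the 2 most abundant genes and those past 2-fold with a mean of at least 1, and in marker lists the most abundant gene and those past 2-fold. *Amh*, *Fshr*, *Foxl2*, *Cyp19a1*, *Hsd17b1*, *Lyz2*, *Slc25a33* and *Mterf2* were named outside this rule, after their values were seen, and genes that overlap a named gene or share its sequence were named for that. The gene *Prorp* was found under an older symbol. Positions and overlaps came from GENCODE M21, and transcripts were compared with blastn 2.17.0 (75 bases or more, 95% identity). Python 3.11.15, numpy 2.4.6, pandas 2.3.3 and matplotlib 3.10.9 were used, and the code was tested on simulated data. Alternatives were other pseudocounts, scalings, thresholds and minimum means.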

Additional observations from a re-analysis of the deposited data

How the results depend on the processing

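Each of the 10 mtDNA factors kept the sign of its log2 ratio under pseudocounts of 0.01 and 1, both rescalings and no pseudocount (added after the data were seen), with 0 past 2-fold under each. The median log2 ratio of the 10 did not keep its sign: it was -0.076 after subtraction of the median of expressed genes, -0.027 after division by the sum of each genotype, 0.042 with a pseudocount of 1 and 0.082 with none. At 1.5-fold, 2 of the 10 members and 1 of 10 replication partner genes were past the threshold. So were 2 of 18 nucleotide supply, 4 of 27 RNA processing, 2 of 7 nucleoid and 1 of 11 nuclear regulator genes. Among the 6226 genes at a mean of at least 1, 1445 (23.2%) were past it. That share is an unlike background for these counts, since 35 of the 73 listed genes with a row had a mean below 1. A share at 1.5-fold was not computed for genes with lower means. At 2-fold, the replication partner count of 1 became 0 with a pseudocount of 1 and with both rescalings, and 2 with no pseudocount. The nucleotide supply count of 1 became 2 with a pseudocount of 0.01 or none, and 0 with a pseudocount of 1. For genes at a mean of at least 1, the count of 544 of 6226 became 282 with a pseudocount of 1. It was 1593 of 13830 (11.5%) at a minimum mean of 0.1 and 1749 of 22877 (7.65%) with no minimum. At a minimum of 5 it was 164 of 2778 (5.9%). Among protein-coding genes of RefSeq (added after the data were seen) it was 274 of 4439. The share in that class was 6.17%, against 8.74%, and the cause was not tested. The share of higher means among genes past 2-fold was 62.9% as reported, 46.0% after subtraction of the median and 48.9% after division by the sums. No paired analysis was possible because the table has 1 mean per genotype, and leaving out a library could not be run for the same reason. The depth per library and the spread between libraries are not given by the means, which limits every comparison.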
